A study of Mus musculus with 21 samples.

Results

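Wide shared peaks were taken as the intervals of the p53-antibody peak list of Trp53+/+ (WT) cells that overlapped a peak of the Trp53-/- (KO) list by 1 bp or more, overlapped no interval of the deposited WT-specific list, and spanned 500 bp or more. The 1010 peaks were thus chosen by their WT width and by their overlaps with the KO and WT-specific lists. They made up 14.8% of the 6811 peaks in WT, with a 95% exact binomial interval of 14.0 to 15.7%. A further 2963 shared peaks outside the WT-specific list fell short of 500 bp and are called narrow here. The cells were ID8, a mouse line derived from the ovarian surface epithelium of the C57BL/6 strain, grown without treatment and not synchronised. Both genotypes were profiled by CUT&RUN, in which an antibody directs a nuclease to cut the chromatin around its target and the released DNA is sequenced. The p53 antibody was used in 2 WT and 2 KO samples, and the 17 samples of other antibodies in the series were not analysed here.

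p53 is a transcription factor that binds DNA as a tetramer and switches on genes for cell cycle arrest, cell death and repair. Cells that lack Trp53 have no p53 for the antibody to bind, so an interval called in both genotypes marks DNA released with this antibody in the absence of p53 as well.

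The WT-specific list held 2127 intervals and the KO list 9784, of which 5770 overlapped no WT peak and are called KO-only. Each genotype had 1 list for its 2 samples, with positions and no score or height, so no width below has a replicate behind it, no test across samples was possible, and the read depth is unknown. The lists hold no reads over Trp53 itself, and the genotype labels could not be checked there. Intervals given with shares and medians are 95% intervals that cover counting error only and treat peaks as independent.

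The promoters below lay under wide shared peaks and show what DNA these intervals covered. In the first 5 the WT and KO peaks were of near equal width, and in the last the KO peak was the narrower. Of the 1010 peaks, 61 overlapped at least 1 of 32851 RefSeq promoter windows (GRCm38.p6, the assembly that mm10 represents), each running from 250 bases before to 50 bases after a gene start. They reached 80 windows of 75 genes and covered 40 windows of 38 genes completely. The first 5 sequences belong to the protein-coding genes with the widest WT peak among windows lying wholly inside both the WT and the KO peak. The last belongs to Rchy1, the only listed p53 target with a start among these windows that lay under a wide shared peak. The windows held starts for 27025 of 49997 RefSeq genes. For Trp53inp1, a listed target named below, they held no start, so it could not be judged. Each line gives the 250 bases before the start, 5′ to 3′ on the gene's strand. Capitals mark matches on either strand to a p53 half-site, an AP-1 site (TGANTCA), the ETS core (CCGGAA), a GC box (GGGCGG) or a CCAAT box (CCAAT).
Flcn: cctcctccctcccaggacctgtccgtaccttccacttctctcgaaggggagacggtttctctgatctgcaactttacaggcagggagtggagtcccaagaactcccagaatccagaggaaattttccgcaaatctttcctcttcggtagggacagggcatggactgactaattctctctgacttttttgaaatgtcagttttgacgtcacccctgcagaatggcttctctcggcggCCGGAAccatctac
Ncaph: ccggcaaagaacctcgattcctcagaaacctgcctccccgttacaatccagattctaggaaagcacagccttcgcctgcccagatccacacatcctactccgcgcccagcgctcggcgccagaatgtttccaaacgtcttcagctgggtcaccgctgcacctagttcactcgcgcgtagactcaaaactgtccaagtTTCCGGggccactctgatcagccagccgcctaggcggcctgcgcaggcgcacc
4931414P19Rik: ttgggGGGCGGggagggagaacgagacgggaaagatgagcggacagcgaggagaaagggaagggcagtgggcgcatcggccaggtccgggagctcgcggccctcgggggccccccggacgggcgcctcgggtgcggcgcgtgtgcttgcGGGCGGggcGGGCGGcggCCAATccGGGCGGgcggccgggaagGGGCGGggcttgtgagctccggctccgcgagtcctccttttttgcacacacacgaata
Prdm10: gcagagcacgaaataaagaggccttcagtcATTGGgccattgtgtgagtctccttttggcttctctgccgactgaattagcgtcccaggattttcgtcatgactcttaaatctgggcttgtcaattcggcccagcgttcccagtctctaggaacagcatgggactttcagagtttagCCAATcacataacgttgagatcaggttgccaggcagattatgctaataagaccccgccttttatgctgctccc
Aff1: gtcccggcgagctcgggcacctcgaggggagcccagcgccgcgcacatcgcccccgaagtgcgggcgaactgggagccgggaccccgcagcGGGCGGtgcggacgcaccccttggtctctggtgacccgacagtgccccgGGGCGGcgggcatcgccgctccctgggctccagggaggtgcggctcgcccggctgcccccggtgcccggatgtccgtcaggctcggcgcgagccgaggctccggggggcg
Rchy1: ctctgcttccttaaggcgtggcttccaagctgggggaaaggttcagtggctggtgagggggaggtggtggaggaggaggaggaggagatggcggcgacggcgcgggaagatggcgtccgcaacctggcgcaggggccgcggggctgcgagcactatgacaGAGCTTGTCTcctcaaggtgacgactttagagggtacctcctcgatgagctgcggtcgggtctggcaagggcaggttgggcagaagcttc

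The stretch before Flcn, which encodes the tumour suppressor folliculin, was chr11:59810040-59810289 on the minus strand, and its peak was 1450 bp wide in WT and 1422 bp in KO. Ncaph encodes a condensin subunit, its stretch was chr2:127133955-127134204 on the minus strand, and the peak measured 874 bp in WT and 891 bp in KO. Both stretches held 1 ETS core and no GC box. The stretch of 4931414P19Rik, chr14:54605909-54606158 on the minus strand, held 5 GC boxes and 1 CCAAT box under a peak of 869 bp in WT and 798 bp in KO. Prdm10, a zinc finger gene of the PRDM family, had 2 CCAAT boxes in chr9:31280299-31280548 on the plus strand, and its peak was 761 bp wide in WT and 742 bp in KO. Aff1 encodes a component of the super elongation complex of RNA polymerase II. Its stretch, chr5:103753912-103754161 on the plus strand, held 2 GC boxes under a peak of 728 bp in WT and 724 bp in KO. Rchy1 encodes a ubiquitin ligase that targets p53. Its stretch, chr5:91962557-91962806 on the minus strand, held 1 p53 half-site, and 195 of the 250 bases lay in the WT peak of 729 bp, which was 567 bp wide in KO. None of the 6 stretches held an AP-1 site. A match says only that the letters occur there.

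Over the whole windows, the p53 half-site was found in 6 of the 80 under wide shared peaks (7.50%), in 20.2% of 163 windows under WT-specific peaks and in 8.36% of all windows. Windows under narrow shared peaks (8.94% of 358) and under KO-only peaks (7.55% of 556) lay near the share of all windows too. The promoters under wide shared peaks had a median GC content of 57.7%, compared with 52.7% over all windows, and a median of 19 CpG dinucleotides, compared with 7. A CpG content of at least 0.6 times that predicted from the bases was seen in 63.8% of them, in 64.8% under narrow shared peaks, in 63.8% under WT-specific peaks and in 35.8% of all windows. Under KO-only peaks the share was 68.2%. CpG-rich sequence was therefore common to promoters of all these peak classes. The ETS core was in 32.5% of windows under wide shared peaks and in 14.9% of all. It was in 26.3% of windows under narrow shared, 24.5% under WT-specific and 27.7% under KO-only peaks. Among CpG-rich windows it was in 37.3% of 51 under wide shared peaks and in 29.8% of all 11765. The GC box was in 37.5% of windows under wide shared peaks and in 35.7% of all, and among CpG-rich windows in 52.9% and 72.3%. Under narrow shared, WT-specific and KO-only peaks the GC box was in 49.7%, 49.7% and 56.1%. AP-1 sites were in 8.75% of windows under wide shared peaks and in 7.81% of all.

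The wide shared peaks ranged from 500 to 5830 bp in WT, with a median of 598.5 bp (interval 588 to 608), and 509 of them (50.4%) lay within 100 bp of the threshold. A further 81 (8.02%) reached 1000 bp. Their summed length, 700700 bp, made up 24.5% of all bases in WT peaks. The WT widths chose these peaks and are given as a description. Within 20 bp of the threshold, 125 shared peaks lay at or above it, with a median KO width of 525 bp, and 82 lay below it, with a median KO width of 531 bp. Just inside, at 500 bp in WT, the KO peak was 246 bp at chr15:77882829-77883328, 695 bp at chr7:49475257-49475756 and 576 bp at chr8:64841951-64842450. Just outside, 1 bp narrower in WT, it was 564 bp at chr17:31892712-31893210, 531 bp at chr2:144165210-144165708 and 812 bp at chr3:58203072-58203570. Shared peaks on the 2 sides of 500 bp thus had KO widths in the same range.

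The KO peaks at these intervals varied more in width than the WT peaks that the threshold had chosen. A single KO peak overlapped 989 of the 1010 (97.9%), 2 KO peaks overlapped 20 and 4 overlapped 1. Taking the widest overlapping KO peak, the median KO width was 661 bp (interval 645 to 693), with quartiles of 541 and 933 bp and a range of 182 to 5869 bp. KO widths of 500 bp or more were seen at 836 (82.8%), and 192 of these reached 1000 bp. For comparison, the median KO width was 385 bp at narrow shared peaks and 299.5 bp at KO-only peaks. Of the 2712 KO peaks of 500 bp or more, 1749 (64.5%) were overlapped by a WT peak, while 2265 of the 7072 narrower KO peaks (32.0%) were. Wide KO peaks were thus met by a WT peak more often than narrow ones in these lists. They also have more bases with which to meet one, and the part of width in this was not tested.

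The ratio of KO to WT width had a median of 1.04 (interval 1.03 to 1.06) and quartiles of 0.939 and 1.26. The KO peak was the wider at 634 intervals (62.8%), the WT peak at 366 (36.2%), and 10 were equal. Over all 3973 shared peaks outside the WT-specific list the KO peak was the wider in 74.4% and the WT peak in 24.4%. Within 1.5 times of each other lay 751 pairs. The KO peak was at least 1.5 times wider in 142 (14.1%, compared with 33.4% of all shared peaks), and the WT peak in 117 (11.6%, compared with 4.1%). No KO peak was under 182 bp, so none of the 1558 WT peaks below 250 bp could be 1.5 times wider. The 4.1% is held down by this floor. A threshold on the WT width favours pairs that are wider in WT. With the same threshold on the KO width instead, the median ratio of the 1783 peaks chosen was 1.60, and with both widths summing to 1000 bp or more it was 1.24 for 1316 peaks. A threshold on the KO width favours pairs that are wider in KO, so its median has no bearing on the direction. With the WT threshold and with the summed threshold the median lay above 1, while its size followed the choice. Along the WT width the median ratio was 1.28 below 250 bp, 1.42 from 250 bp, 1.13 from 350 bp, 1.04 to 1.07 in the 3 classes between 500 and 1000 bp, and 1.02 from 1000 bp. The 2 widths had a Spearman rho of 0.520 and a Pearson r of 0.499 on log2 widths over the 1010 intervals, which come from the same pair of lists.

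**Figure D1:**
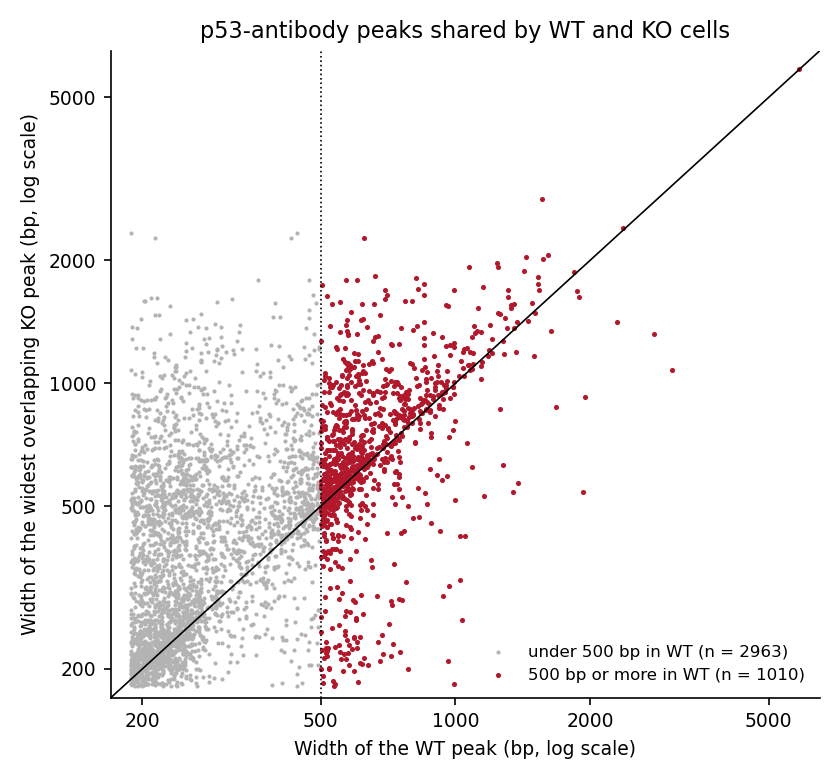
Width of each shared WT peak (bp, log scale) against the width of the widest overlapping KO peak (bp, log scale), one point per peak, with the 1010 wide peaks in red, the 2963 narrow peaks in grey, a line of equal width and a dotted line at 500 bp. Most red points lie along the line of equal width, and a small set with KO widths under 250 bp lies far below it.

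The edges of the 2 calls lay close together. Among 971 intervals where 1 WT peak met 1 KO peak and no other, the median shift was 38 bp at the left edge and 37 bp at the right edge, and both edges were within 50 bp in 329 (33.9%). The KO peak reached beyond the WT peak at both edges in 407 pairs, lay inside it at both edges in 172, and passed 1 edge only in 260. At least 1 edge was at the same base in the remaining 132. In 748 pairs (77.0%) the KO peak covered 90% or more of the WT peak. A minor group did not follow this. At 52 of the 1010 intervals (5.15%) the widest KO peak was under 250 bp and covered a median of 38.0% of the WT peak, whose median width there was 571 bp. In these the 2 genotypes shared a position and not a wide domain.

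The 20 widest intervals carried wide signal in both genotypes. The KO peak reached 1000 bp in 17 of them and lay within 1.5 times of the WT width in 13, and it was the wider in 9. None lay over a listed gene start, 9 lay inside a gene, and 7 had no RefSeq gene within 5 kb. The interval chr18:13250537-13252097 could not be judged for starts, since chromosome 18 had none listed. The widest, chr10:3111274-3117103, spanned 5830 bp in WT and 5869 bp in KO and lay 703 bp from the predicted gene Gm3318. Inside Nuggc, which encodes a nuclear GTPase, chr14:65624209-65626573 spanned 2365 bp in WT and 2393 bp in KO. In Lct, the gene for the intestinal enzyme lactase, chr1:128315773-128317611 spanned 1839 bp in WT and 1865 bp in KO.

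St6gal1, which encodes a sialyltransferase, held chr16:23239648-23241153 with 1506 bp in WT and 1487 bp in KO. These 4 loci differed little between the genotypes.

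Further loci of the 20 differed more. At chr7:4649137-4651064 in Ppp6r1, which encodes a regulatory subunit of protein phosphatase 6, a WT peak of 1928 bp met 2 KO peaks, the wider of 543 bp, which summed to 1012 bp. The interval chr15:80025954-80027560 lay 1340 bp from Pdgfb, a gene of a platelet-derived growth factor chain, and was 1607 bp wide in WT and 2063 bp in KO. In Eya4, a transcriptional coactivator with phosphatase activity, chr10:23176501-23178132 was 1632 bp in WT and 1339 bp in KO. Slc12a8, a transporter gene of the cation-chloride family, held chr16:33580550-33582048 with 1499 bp in WT and 1163 bp in KO.

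**Figure D2:**
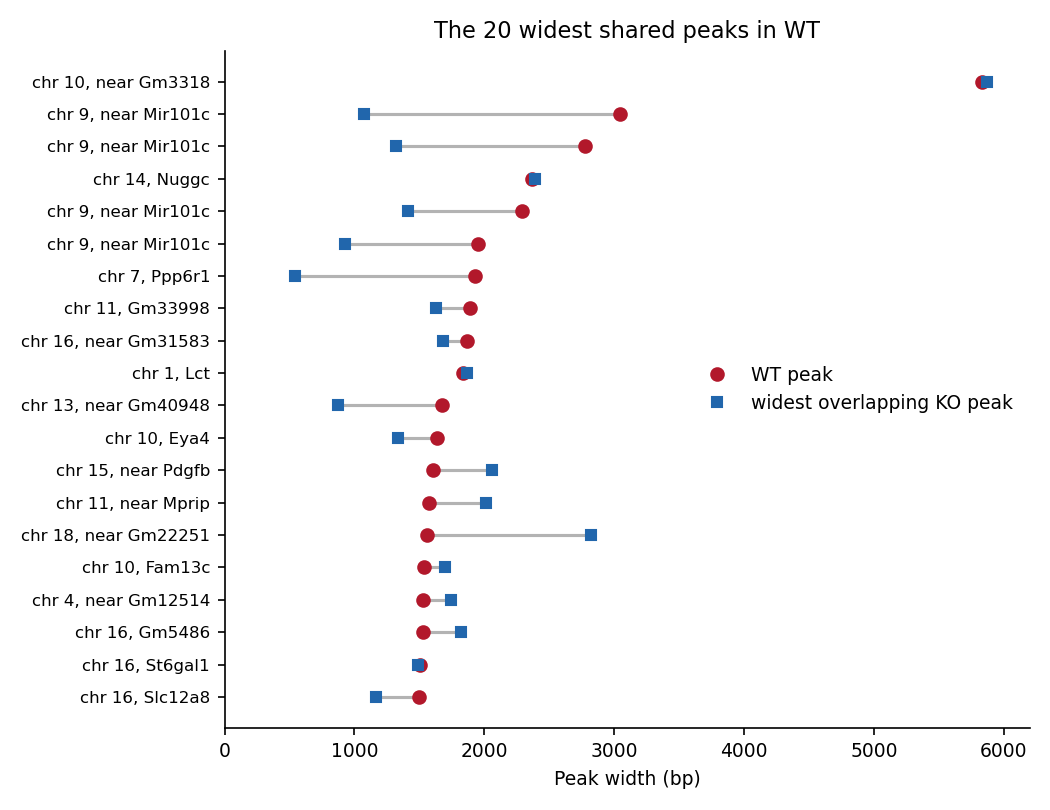
Peak width (bp) of the 20 widest shared peaks, with WT as circles and the widest overlapping KO peak as squares, each labelled by chromosome and nearby gene. The KO peak reached 1000 bp in 17 of the 20, and the 4 intervals at the start of chromosome 9 have the KO square well to the left of the WT circle.

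Wide shared peaks on chromosome 9 before 3.1 Mb stood apart from the rest. The mouse chromosomes have their centromere at one end, and this stretch is the first assembled sequence after it. The 100-kb window chr9:3000001-3100000 held 11 wide shared peaks, the most of any, between bases 3000336 and 3037863. Their WT widths ran from 553 to 3043 bp and their KO widths from 331 to 1412 bp, with a median ratio of 0.569, and the KO peak was the wider in 0 of 11. The largest, chr9:3000336-3003378, was 3043 bp in WT and was broken into 4 KO peaks summing to 2167 bp. The next, chr9:3011807-3014581, was 2775 bp in WT and met 2 KO peaks, the wider of 1317 bp, which summed to 2328 bp. Together these 11 intervals covered 16124 bp in WT, while the 17 KO peaks that met them covered 11674 bp. The only gene of the window was the microRNA gene Mir101c. No WT-specific interval lay in it. Without these peaks the median ratio over the others was 1.05. Repeat content and the mapping of reads were not examined for these or any other peaks, so their part in these widths was not tested.

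At the other end of the scale, the highest ratio of KO to WT width was 3.62, at chr1:164896306-164896930 by the lncRNA gene Gm32652, with 625 bp in WT and 2262 bp in KO. The interval chr4:100285884-100286454 at Ror1, which encodes a receptor tyrosine kinase-like protein, had 571 bp in WT and 1784 bp in KO, a ratio of 3.12. At Rai14, which encodes an actin-associated protein, chr15:10685596-10686256 had 661 bp and 1830 bp, a ratio of 2.77. The lowest was 0.185. Near Wfikkn2, which encodes a protease inhibitor domain protein, 964 bp in WT met 209 bp in KO. The interval chr2:152739123-152739874 lay 1713 bp from Id1, an inhibitor of basic helix-loop-helix factors, with 752 bp in WT and 220 bp in KO. Acsl5, an acyl-CoA synthetase gene, had 719 bp and 215 bp, and Ak5, an adenylate kinase gene, had 679 bp and 209 bp. The KO peaks at these low ratios were short calls within wider WT intervals.

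Most wide shared peaks lay in or close to genes, as did most peaks of the WT list. Inside a RefSeq gene were 560 (55.4%, interval 52.3 to 58.5), and 707 (70.0%) had a gene within 5 kb. Over all WT peaks these shares were 56.4% and 70.8%. The corresponding shares inside a gene were 59.2% for narrow shared, 50.9% for WT-specific and 58.7% for KO-only peaks. A listed gene start lay under 45 (4.46%, interval 3.27 to 5.92), compared with 3.17% of narrow shared peaks (2.57 to 3.87). No start was listed on chromosome 18, so its 26 wide shared peaks were counted as lying over none. Among peaks of 500 bp or more, the share over a start was 5.47% of WT-specific and 4.36% of KO-only peaks. Wide peaks have more bases with which to meet a start, and among peaks of this width the wide shared ones were near the KO-only ones. More than 50 kb from any gene were 36 (3.56%), compared with 9.07% of WT-specific peaks.

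**Figure D3:**
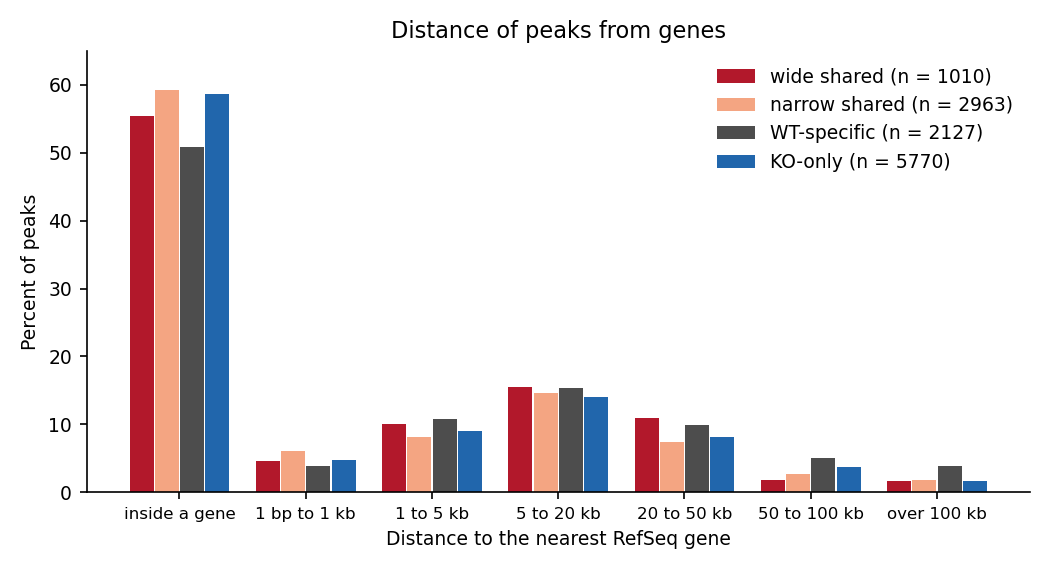
Percent of peaks (y axis) by distance to the nearest RefSeq gene (x axis) for wide shared, narrow shared, WT-specific and KO-only peaks. The bars inside genes are the tallest in each class, at 55.4% for wide shared peaks, and the WT-specific peaks are the most frequent beyond 50 kb.

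Within 5 kb of a wide shared peak were 786 of 49997 RefSeq genes (1.57%), among them 478 of 21900 protein-coding genes (2.18%), 248 of 12731 lncRNA genes and 34 of 9955 pseudogenes. Longer genes had such a peak more often. The share of protein-coding genes with one went from 0.693% of those under 5 kb to 1.79% at 20 to 50 kb, 3.34% at 50 to 100 kb and 7.90% of those of 100 kb or more. Most of the 786 genes, 679, had 1 wide shared peak, 90 had 2 and 17 had 3 or more.

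Genes with 4 or more, all of them inside the gene, numbered 6. They were chosen after their values were seen. Aopep, which encodes an aminopeptidase and spans chr13:62964893-63326096, held 7. Their WT widths in order along the chromosome were 699, 702, 597, 1333, 552, 833 and 721 bp, and the KO widths were 1081, 1643, 604, 1554, 389, 773 and 710 bp. The first 4 were wider in KO and the last 3 wider in WT. Tns1, whose product tensin 1 links integrins to actin at focal adhesions, spans chr1:73910232-74124548 and held 4, with WT widths of 516, 733, 1434 and 637 bp and KO widths of 729, 844, 2038 and 656 bp. All 4 were wider in KO. Bcl2l1, the gene of the anti-apoptotic protein BCL-XL, spans chr2:152758732-152833803 and held 4, with WT widths of 919, 633, 527 and 567 bp and KO widths of 882, 452, 548 and 587 bp. KO was wider at 2 of these. Ltbp1, which encodes a latent TGF-beta binding protein, held 4 of 504 to 586 bp in WT and 431 to 787 bp in KO. Ano1, a calcium-activated chloride channel gene, held 4 of 513 to 699 bp in WT and 501 to 987 bp in KO. Ppfibp1, which encodes liprin beta 1, held 4 of 503 to 952 bp in WT and 448 to 990 bp in KO.

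p53 target genes were mostly marked by WT-specific peaks. Of 57 listed targets, 3 (5.26%) had a wide shared peak within 5 kb, 3 had a narrow shared one, 31 (54.4%) had a WT-specific one and 6 (10.5%) a KO-only one. Over all RefSeq genes these shares were 1.57%, 4.59%, 3.32% and 7.72%. The target lists were chosen with earlier results of these data known. The rule also left out every peak that overlapped a WT-specific interval, so the contrast between these classes is a description and no test. The 3 with a wide shared peak were all in the list of cell cycle and feedback genes, and none of 16 cell death, 15 metabolism or 8 DNA repair targets had one. At Btg2, an anti-proliferative gene, chr1:134082851-134083503 lay 3696 bp upstream of the start, with 653 bp in WT and 634 bp in KO. Btg2 also had WT-specific peaks of 532 and 1056 bp, the second 2715 bp from the shared peak. At Trp53inp1, whose product acts with p53 in stress responses, chr4:11160874-11161461 inside the gene was 588 bp in WT and 224 bp in KO. A WT-specific peak of 1842 bp lay 4206 bp from it. Rchy1, shown above, had no WT-specific peak within 5 kb. Of the 3 targets, 2 thus had WT-specific signal beside the shared peak.

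Among the functional gene lists, that of the actin cytoskeleton and adhesion had the highest share of genes with a wide shared peak. Of its 32 genes, 7 (21.9%) had one, 13 (40.6%) had a narrow shared peak, 17 (53.1%) a KO-only peak and 5 (15.6%) a WT-specific peak. Over all protein-coding genes these shares were 2.18%, 6.67%, 11.0% and 4.93%. The list was also the highest of the functional lists for narrow shared and KO-only peaks, so this rank was not particular to wide shared peaks. The genes of this list had a median length of 24450 bp. A wide shared peak was near 0 of its 5 genes under 5 kb and 1 of 10 at 5 to 20 kb. It was near 1 of 8 at 20 to 50 kb, 4 of 6 at 50 to 100 kb and 1 of 3 of 100 kb or more. Among all protein-coding genes these shares were 0.693%, 1.12%, 1.79%, 3.34% and 7.90%. Each length class held few listed genes, and the part of gene length in the list's share was not tested. Actn4, which encodes the actin crosslinker alpha-actinin 4, had chr7:28930635-28931663 with 1029 bp in WT and 1130 bp in KO. Myh9, the gene of non-muscle myosin heavy chain IIA, had chr15:77820184-77820954 with 771 bp in WT and 1584 bp in KO. In both the KO peak was the wider. Plec, which encodes the cytolinker plectin, had chr15:76195857-76196608 with 752 bp in WT and 916 bp in KO. Lasp1, an actin-binding protein gene, had chr11:97813409-97814270 with 862 bp in WT and 506 bp in KO. At Vim, the intermediate filament gene vimentin, chr2:13572882-13574140 ended 171 bp upstream of the start and was 1259 bp in WT and 863 bp in KO. The direction of the width difference was not the same in all of these genes. Ahnak, which encodes a large scaffold protein, held 2 intervals of 531 and 574 bp in WT, with 491 and 570 bp in KO.

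Of 28 ovarian surface epithelium genes, 3 (10.7%) had a wide shared peak, 5 (17.9%) a narrow shared one and 8 (28.6%) a KO-only one. Over all protein-coding genes these shares were 2.18%, 6.67% and 11.0%. Msln, the gene of the surface protein mesothelin, had chr17:25756141-25757386, 1763 bp outside the gene, with 1246 bp in WT and 1927 bp in KO. Pax8, a transcription factor gene of the Muellerian tract, had 647 bp in WT and 643 bp in KO at 2980 bp. Podxl, which encodes podocalyxin, had 518 bp in WT and 215 bp in KO at 1016 bp. The marker lists of other cell types had 0 of 17 genes (leukocytes), 0 of 16 (fibroblasts and endothelium) and 1 of 19 (neurons and glia). Beside the 1.57% of all genes, counts this low in lists this short are near the background.

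Among lists for general functions, 1 of 28 immediate early and AP-1 genes had a wide shared peak, Junb, a subunit of AP-1. Its interval chr8:84979782-84980468 lay 1034 bp upstream of the start and was 687 bp wide in WT and 775 bp in KO. A KO-only peak was near 10 of these 28 genes (35.7%) and a narrow shared one near 6 (21.4%). Over all protein-coding genes these shares were 11.0% and 6.67%. Of 24 YAP and TEAD targets, Nuak2, a kinase gene, had chr1:132335254-132335762 with 509 bp in WT and 551 bp in KO. A KO-only peak was near 10 (41.7%) of these 24 targets and a narrow shared one near 5 (20.8%). Of 24 translation factor genes 2 had a wide shared peak. Eif3b, an initiation factor subunit gene, had chr5:140418784-140419291, ending 14 bp upstream of its start, with 508 bp in WT and 497 bp in KO. A second Eif3b interval inside the gene, chr5:140438844-140439545, was 702 bp in WT and 431 bp in KO. Eef1g, an elongation factor subunit gene, had one of 535 bp in WT and 646 bp in KO at 4757 bp. Of 33 chromatin and transcription genes 2 had one, Brd2, a BET bromodomain gene, with chr17:34122075-34122586 of 512 bp in WT and 651 bp in KO, and Nfkb1, the gene of an NF-kappaB subunit, with 555 bp in WT and 559 bp in KO. Of 26 listed lncRNA genes 1 had one, Pvt1, the neighbour of Myc, with chr15:62078814-62079879 of 1066 bp in WT and 1107 bp in KO. With 1 or 2 members each, these lists give no more than their single loci.

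At the all-gene share of 1.57%, a list of 26 genes or fewer would hold fewer than 1 with a wide shared peak, so an empty list of that length lies near the background. No member had one among 25 heat shock genes, 20 RNA polymerase III and small nuclear RNA genes, 26 nucleic acid sensing genes, 26 interferon response genes, 17 antigen presentation genes and 24 cell cycle genes. None was found either among 91 ribosomal protein genes, 39 proteasome genes, 1428 olfactory receptor genes and 645 vomeronasal receptor genes. The receptor lists are too long for an empty list to lie near the all-gene share. Their genes had median lengths of 945 bp (olfactory) and 936 bp (vomeronasal), compared with 5940 bp over all RefSeq genes. The part of gene length in this was not tested. Of 448 zinc finger protein genes 2 (0.446%) had a wide shared peak, 23 (5.13%) a narrow shared and 52 (11.6%) a KO-only peak. Over all RefSeq genes these shares were 1.57%, 4.59% and 7.72%. Of 111 histone genes 4 (3.60%) had a wide shared peak, all from a single interval, chr13:21715896-21716597. It lay over the starts of H2bc13 and H2ac13 and was 702 bp in WT and 736 bp in KO.

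**Figure D4:**
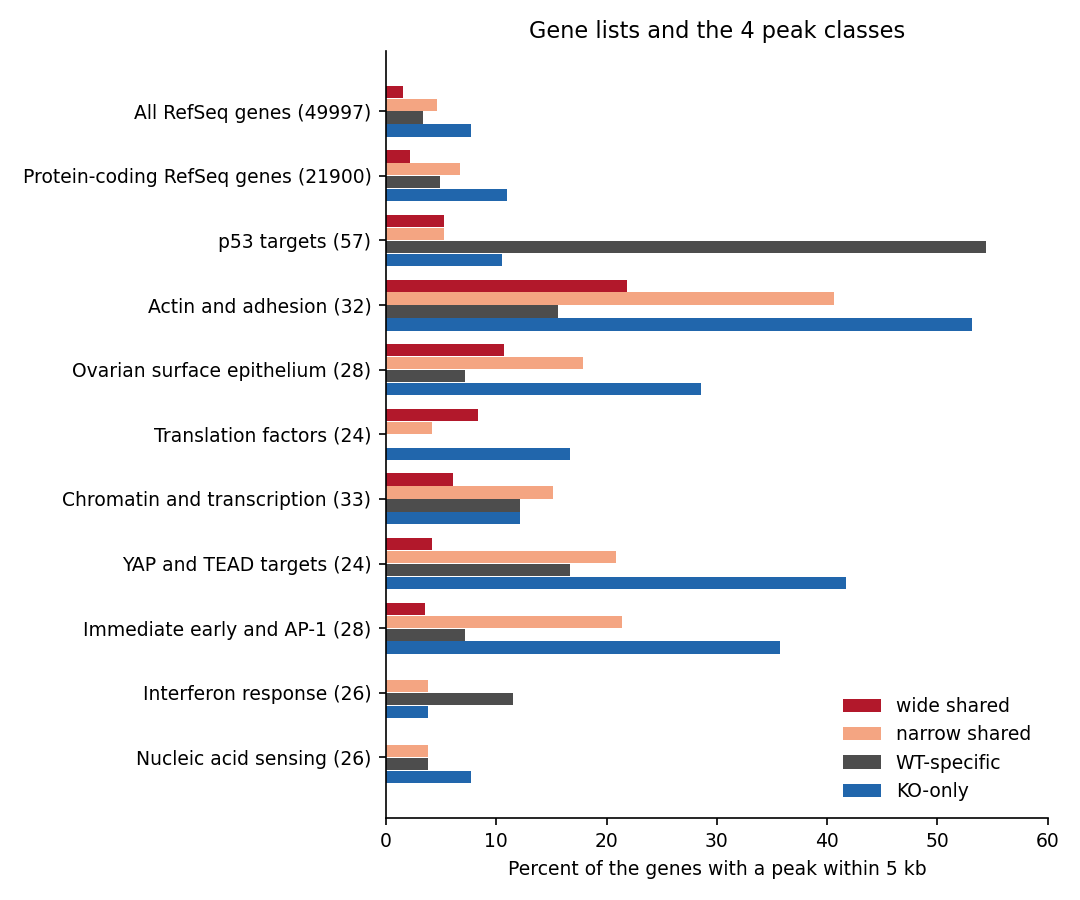
Percent of the genes of each list (x axis) with a peak of each of the 4 classes within 5 kb, with the number of genes in brackets. For wide shared peaks the actin and adhesion list is the highest at 21.9%, and for WT-specific peaks the p53 targets are at 54.4%.

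The wide shared peaks were spread over all chromosomes and unevenly. Chromosome 1 had the most, 92 (9.11%), followed by chromosome 11 with 82 and chromosome 9 with 72. Per Mb up to the last RefSeq gene the number was 0.383 over chromosomes 1 to 19 and X. It was highest on chromosome 11 at 0.673, followed by chromosomes 19 (0.636) and 15 (0.635), and lowest on chromosomes 12 (0.117) and X (0.0293). All WT peaks were also dense on chromosomes 11, 19 and 15, with 3.61, 4.26 and 3.53 per Mb. On chromosomes 12 and X there were 1.62 and 0.650 WT peaks per Mb. The share of shared peaks that were wide was 34.2% on chromosome 19 (39 of 114, interval 25.6 to 43.7), 12.1% on chromosome 12 (14 of 116, interval 6.76 to 19.4) and 8.93% on X (5 of 56, interval 2.96 to 19.6). On chromosome 12 the share of shared peaks whose KO peak reached 500 bp was 49.1%, and on chromosome 19 it was 40.4%, so the low WT share on chromosome 12 did not recur in KO.

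On X, the 5 wide shared peaks ran from 579 to 973 bp in WT and from 276 to 1173 bp in KO, and KO was wider at 4. One of them lay inside Phka2, the gene of a phosphorylase kinase subunit, and one lay 4427 bp from Adgrg2, an adhesion G protein-coupled receptor gene. The Y chromosome had 1, of 578 bp in WT, with a width ratio of 1.01. The mitochondrial genome had 1, at bases 15528 to 16058, past the tRNA gene TrnP, with 531 bp in WT and 605 bp in KO.

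The median ratio of KO to WT width was above 1 on 18 of the 20 chromosomes other than Y. Its interval lay wholly above 1 on chromosomes 2, 7, 8, 11, 13, 14 and 17. On the others with an interval it reached 1 or below, as on chromosomes 5 (0.957 to 1.08) and 19 (0.985 to 1.03). The median was 1.21 on chromosome 14 (interval 1.03 to 1.35), where KO was wider in 38 of 46. On chromosome 11 it was 1.13 (1.06 to 1.21), where KO was wider in 62 of 82. The chromosomes below 1 were chromosome 16, with 0.980 (0.778 to 1.10) and 17 of 38 wider in KO, and chromosome 6, with 0.999 and 33 of 70. The number of KO peaks for each WT peak moved with this. It was 1.91 on chromosome 14, 1.04 on chromosome 16 and 0.998 on chromosome 6, and over the 20 chromosomes it had a Spearman rho of 0.662 with the median ratio. Both quantities come from the same pair of lists, and the part of peak number in the width ratio was not tested.

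**Figure D5:**
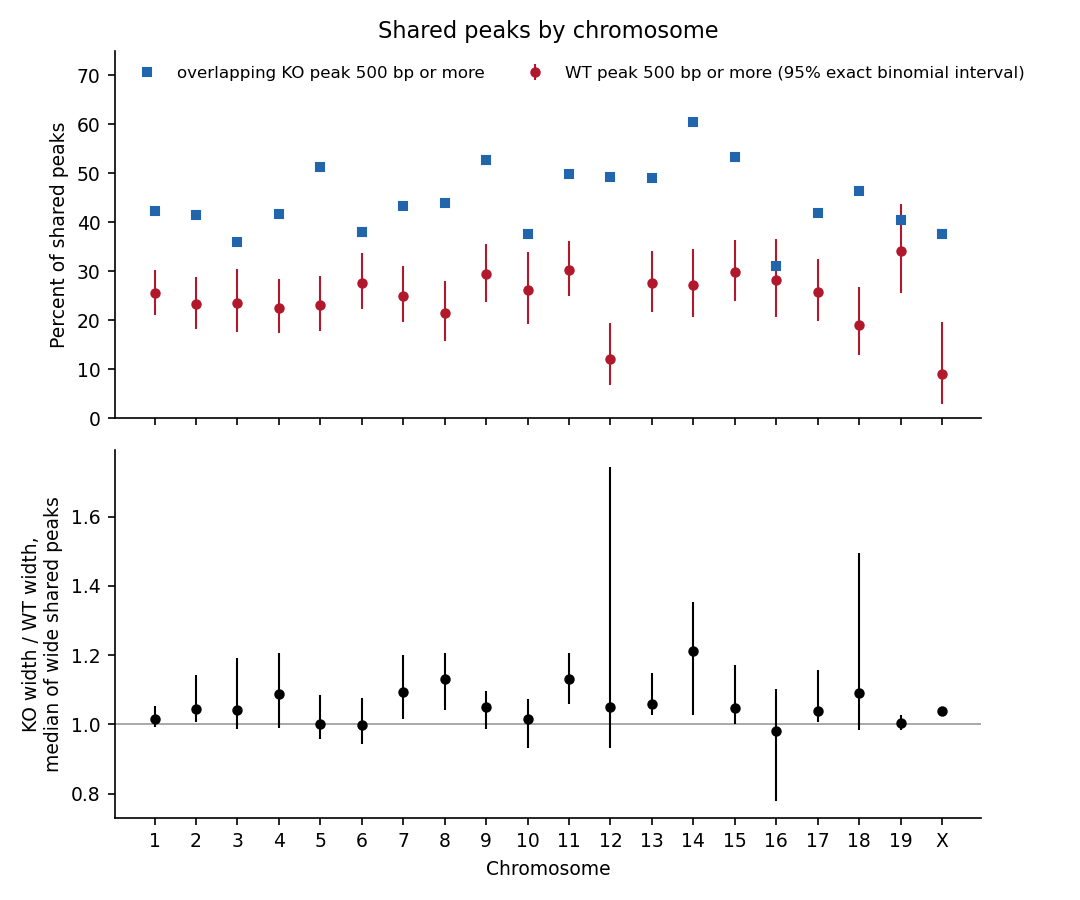
Upper panel, percent of shared peaks on each chromosome that were 500 bp or more in WT (circles, with 95% exact binomial intervals) or in KO (squares). Lower panel, median KO to WT width ratio of the wide shared peaks with its interval, where X has too few peaks for one; chromosome 14 is the highest at 1.21 and chromosome 16 the lowest at 0.980.

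At shorter range, another wide shared peak lay within 10 kb of 182 (18.0%) and within 100 kb of 451 (44.7%). The median distance to the nearest was 162 kb. These values were not computed for other peak classes, so whether such spacing is particular to wide shared peaks was not tested. The wide shared peaks occupied 824 windows of 100 kb, of which 30 held 3 or more. After the start of chromosome 9, the fullest window was chr11:43900001-44000000 with 5, at Adra1b, an adrenergic receptor gene, and the lncRNA gene Gm12153. Their WT widths were 511, 1038, 852, 801 and 652 bp and their KO widths 588, 1189, 1147, 858 and 642 bp, so KO was wider at 4. The window chr11:8600001-8700000, inside Tns3, another tensin gene, held 4, with WT widths of 1311, 547, 571 and 956 bp and KO widths of 1688, 422, 592 and 1015 bp. Windows in Tns1 and Aopep, whose widths are given above, also held 4. In all 11 windows held 4 or more, and these 3 were taken from those tied at 4 by the alphabetical order of the chromosome names.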

How the data were processed

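The p53-antibody peak lists were deposited by the authors as interval positions (chromosome, start, end), with no score, signal or count, 1 list per genotype. Their processing used fastp, Bowtie2, MACS2 and deepTools with mm10, per the submitters' processing notes. For versions, thresholds, pooling of the 2 samples and the WT-specific rule, no statement is given in the sources used here.

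The KO table's header joins its start and end names, so its columns were read by position as chromosome, start and end, and every KO width rests on that reading. Starts were read as 0-based and are printed 1-based. Overlaps of 1 bp or more were computed with Python 3.11.15, numpy 2.4.6 and pandas 2.3.3, checked against bedtools and tested on simulated data. A WT peak was paired with the widest KO peak it overlapped. Genes came from RefSeq GRCm38.p6, with peaks assigned to every gene within 5 kb. Promoter windows from the same source covered 27025 of 49997 genes and none on chromosome 18. Of the listed symbols, 4 had no match. Shares have exact binomial (Clopper-Pearson) intervals from scipy 1.17.1, medians have order-statistic intervals, and figures used matplotlib 3.10.9.

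The peaks and gene lists were chosen with earlier results of these data known. The genes named were drawn from the 20 widest peaks, up to 6 list genes per list, the 10 highest and 10 lowest width ratios, the 5 fullest 100-kb windows and the 3 peaks on each side of 500 bp. Not all that the rule admits are named, and 1 listed gene is not reported here. Width, overlap and gene-window thresholds were varied, and chromosomes or clusters left out.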

Additional observations from a re-analysis of the deposited data

How the results depend on the processing

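Of 62 alternative values, counts were held to a change of at most 1.5 times and medians and shares to their 95% interval. By this measure 50 stayed, 12 moved and 0 reversed. Only the median width ratio, with 10 alternatives, could be counted as reversed. At 750 bp or more the number of wide shared peaks was 243, the number of genes within 5 kb 213 and the number of p53 targets 0, since fewer peaks were kept. With 20 kb on each side, 1437 genes and 6 p53 targets had a wide shared peak. The median ratio of KO to WT width was 1.07 with 50% of the WT peak covered, 1.06 at 400 bp or more in WT, 1.60 with 500 bp required of the KO width and 1.24 with both widths summing to 1000 bp. The share of intervals wider in WT was 30.6% with 50% covered, 10.8% with the KO threshold and 18.6% with the summed threshold. These follow from which peaks each rule admits. The alternatives chosen after seeing the data were leaving out chromosome 9 before 3.1 Mb and leaving out peaks within 10 kb of another, and neither moved a result by this measure. The number of p53 targets went from 3 to 2 without peaks within 10 kb of another, with 50% of the WT peak covered, and with 1 kb or no base added to the gene. No paired analysis was possible because each genotype has 1 peak list, so the replicate numbers have no values of their own, and no replicate could be left out for the same reason. Read depth is unknown, so how it limits the widths was not tested.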
